A study of Rattus norvegicus with 102 samples.

Results

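The metabotropic glutamate receptors are G protein-coupled receptors for glutamate, the main excitatory transmitter of the hippocampus. Group I receptors act through Gq on phospholipase C and calcium release and sit mostly beside the postsynaptic density, whereas group II and group III receptors act through Gi/o to lower cyclic AMP and, from presynaptic terminals, restrain transmitter release. Group II receptors are well known on mossy fibres, the axons by which dentate granule cells reach CA3, and group III receptors sit close to the release site.

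The members described here were the 6 genes listed in the deposited tables under the symbols Grm5 (group I), Grm2 and Grm3 (group II), and Grm4, Grm7 and Grm8 (group III). Each symbol had 1 row among the 26284 genes of the Illumina and of the WT table and the 26341 genes of the Ion Proton table. All of them were protein coding, on chromosome 1 (Grm5, ENSRNOG00000016429), 8 (Grm2, ENSRNOG00000013171), 4 (Grm3, ENSRNOG00000005519, Grm7, ENSRNOG00000005662, and Grm8, ENSRNOG00000021468) and 20 (Grm4, ENSRNOG00000000487) of the rn5 build. The tables gave no start or end positions. All 6 members passed the filter on low values, a mean of at least 10, in the subfield fits of both poly-A tables.

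RNA had been measured in hippocampal pieces labelled CA1, CA3 and DG (dentate gyrus) from 34 male Fischer 344 rats. The groups were young (5 to 6 months, n = 10), aged unimpaired and aged impaired (17 to 22 months, n = 12 each), the aged rats being classed by how well they learned a water maze, a test of spatial memory. The labels name no transgene or drug, and all groups had been trained in the maze. Each piece gave 1 poly-A library on an Illumina instrument and 1 on an Ion Proton, both from the RNA of the same rat, so that the second platform repeats the measurement and not the animals. Values are Illumina normalised signal (gene counts divided by a size factor of the library) where no platform is given, errors of levels are SD, and log2 differences are on the log2(signal + 1) scale, which understates changes of low genes. The pieces were bulk tissue, so fewer cells of a type and less RNA per cell cannot be told apart.

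Libraries held 3.25 to 42.8 M reads on genes on the Illumina (median 10.7) and 4.47 to 21.4 M on the Ion Proton (median 9.74). At this depth Grm8 was the least certain member, with as few as 1 read in an Illumina library, and 2 Illumina and 5 Ion Proton libraries at or under 3 reads. Grm2 had 0 reads in 1 Ion Proton library and Grm4 had 1 read in another. Grm5, Grm3 and Grm7 never fell below 142 reads in an Illumina library.

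The label CA3 did not hold equally for all rats. The rat numbers fell into a series below 9000 (18 rats, of which 5 young, 6 unimpaired and 7 impaired) and a series from 9000 up (16 rats, of which 5 young, 6 unimpaired and 5 impaired). Per the study's methods the rats were trained at a pair of sites, each with its own supplier, and the young and aged rats of the sites were as many as those of the series (5 young and 13 aged below 9000, 5 young and 11 aged above). Which rat came from which site is not given in the sources used here, so series and site may be the same division. Summed signal of a list of CA3 pyramidal markers (Bok, Iyd, Coch, Grik4, Pvrl3 and Spock1 were listed) was 5682 to 7922 in pieces labelled CA3 of the lower series, with a median of 6843. In those of the higher series it was 2191 to 4026, with a median of 3381, and the ranges did not overlap. The CA3 piece carried the highest sum of the rat in 18 of 18 rats of the lower series and in 0 of 16 of the higher series, where the DG piece exceeded it in 15 of 16. On the Ion Proton the corresponding counts were 18 of 18, 1 of 16 and 14 of 16. Grik4, a kainate receptor subunit typical of CA3, ranged from 1948 to 2867 and from 439 to 1431 in these pieces. Separately, 10 libraries of 7 aged rats were nearer to another subfield than to their own by the marker lists of CA1, CA3 and dentate granule cells. They were 1 CA1, 5 CA3 and 4 DG libraries, 9 of 10 from the higher series, and in 1 impaired rat the CA3 piece was nearer to DG and the DG piece nearer to CA3. Receptor differences that involve CA3 are therefore given for both series where the subfields are compared, other values are over all rats unless a series is named, and the phrase "pieces labelled CA3" is used.

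**Figure D1:**
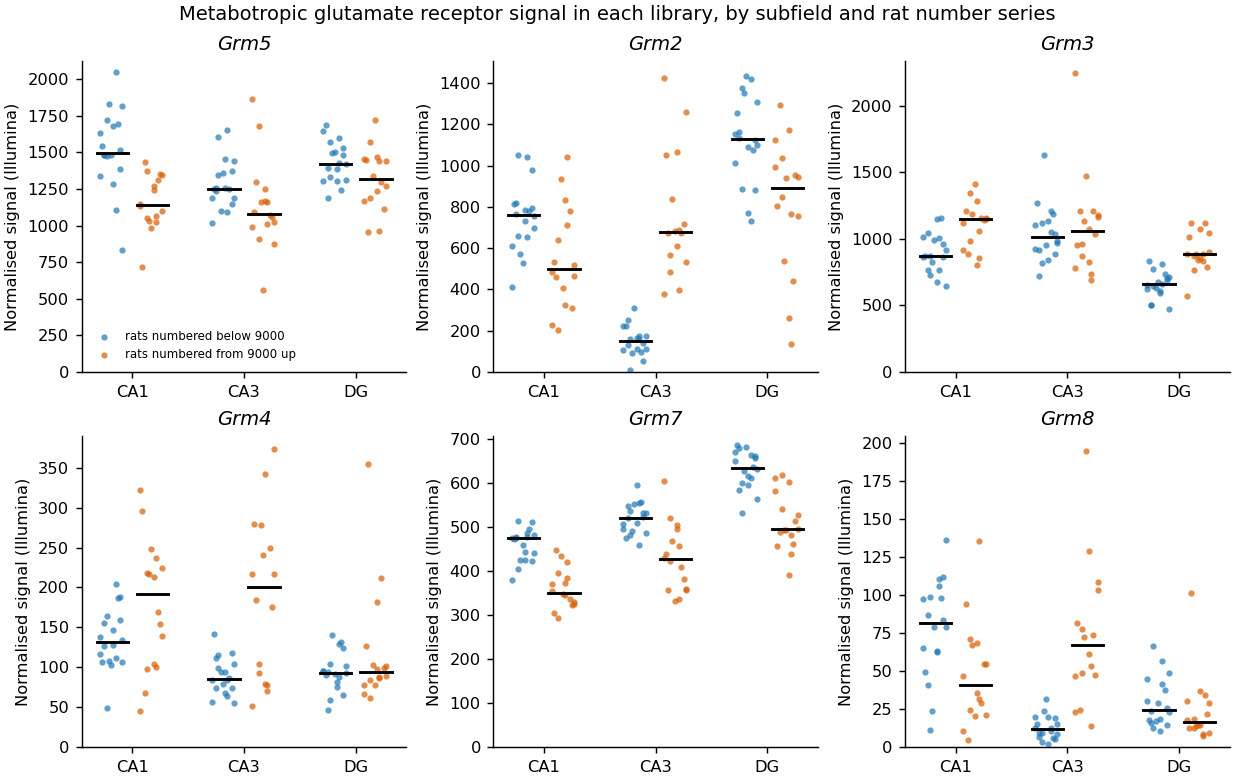
Normalised Illumina signal (y axis, from 0) of each receptor in every library, by subfield (x axis), with rats numbered below 9000 and from 9000 up in separate colours. Grm2 in the pieces labelled CA3 forms separate clouds, 8.05 to 311 in the lower and 377 to 1422 in the higher series, while the other receptors overlap.

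Grm2 gave the clearest separation. It encodes mGlu2, a group II autoreceptor of presynaptic and preterminal axons that is abundant in dentate granule cells. Over all rats its signal was 656 ± 229 in CA1, 433 ± 371 in pieces labelled CA3 and 978 ± 310 in DG (n = 34 each). In the lower series it ranged from 413 to 1052 in CA1 (median 759), from 8.05 to 311 in CA3 (median 150) and from 733 to 1435 in DG (median 1128). CA3 thus lay below the other subfields in that series without overlap on the Illumina. On the Ion Proton CA3 overlapped CA1, since a CA3 piece reached 254 and a CA1 piece fell to 245. The share of all genes that separate the subfields in this way was not counted. In the higher series the ranges were 204 to 1044 in CA1 (median 500), 377 to 1422 in CA3 (median 677) and 136 to 1295 in DG (median 892), and all of them overlapped.

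CA1 of the lower series exceeded CA3 in 18 of 18 rats, by 2.54 ± 0.22 (SE) on the log2 scale (limma adjusted p = 7.5e-15; Ion Proton 2.54). CA3 was below DG in the same 18 rats, by -3.14 ± 0.22 (limma adjusted p = 1.4e-18; Ion Proton -3.14). In the higher series CA1 exceeded CA3 in 6 of 16 rats and the fitted difference was -0.48 ± 0.24 (limma adjusted p = 0.19), and CA3 exceeded DG in 7 of 16, with a difference of -0.03 ± 0.24 (limma adjusted p = 0.92). Pooled over both series, CA1 exceeded CA3 by 1.12 ± 0.25 (2.17-fold, limma adjusted p = 0.00013; Ion Proton 1.23), and CA3 was below DG by -1.68 ± 0.25 (limma adjusted p = 7.7e-09; Ion Proton -1.59). On recovered reads the pooled CA1 against CA3 value was smaller, at 0.63 in edgeR and 0.60 in DESeq2, and was called in both. The pooled values average over both series, and a difference between the series was not tested.

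The separation of Grm2 by number series was seen on every platform. In pieces labelled CA3 the Ion Proton signal was 0 to 254 in the lower series and 268 to 837 in the higher, and that of the WT table, a further library set of the same pieces, was 2.45 to 129 and 204 to 644. Across the transcriptome 16 of 13942 genes tested on both poly-A platforms (0.115%) had ranges that did not overlap between the series in pieces labelled CA3. Grm2 was the 1 member among these genes. In CA1 and in DG the corresponding shares were 0.00721% and 0.00728%, with 0 members. Other markers moved with the series in these pieces, since the summed CA1 pyramidal list was 885 to 6588 in the lower and 2581 to 9595 in the higher series, and the dentate granule list 353 to 1133 and 346 to 4857. The part of tissue composition in the Grm2 difference was not tested.

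**Figure D2:**
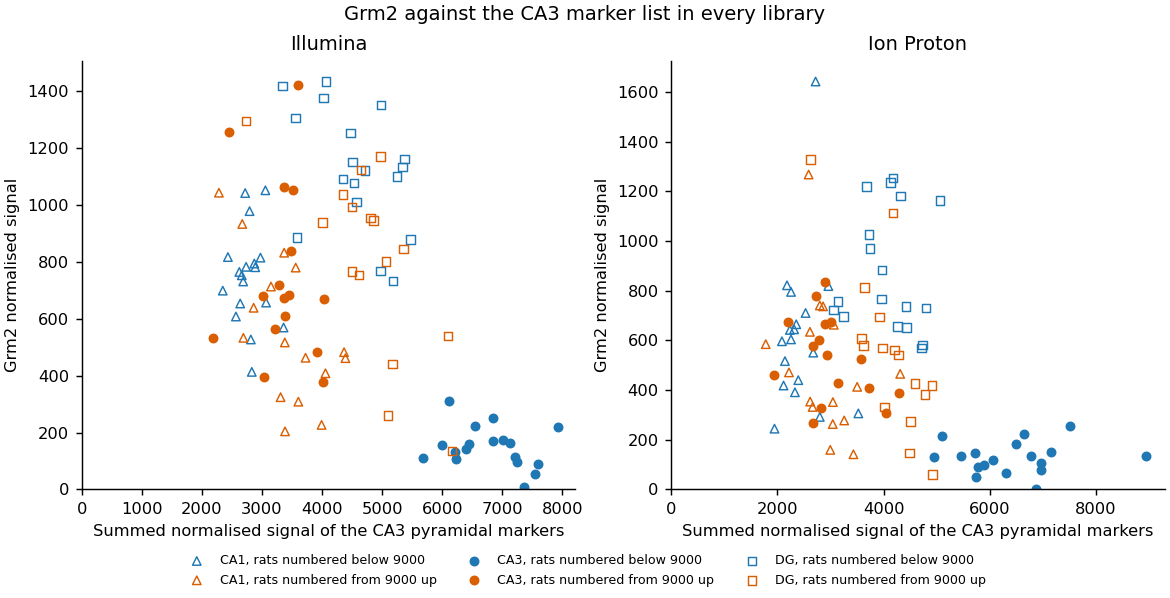
Grm2 normalised signal (y axis) against the summed normalised signal of the CA3 pyramidal markers (x axis) in every library of the Illumina (left) and Ion Proton (right) tables, with subfield shown by symbol and rat number series by colour. Pieces labelled CA3 of the lower series sit at low Grm2 and at Illumina sums of 5682 to 7922, and those of the higher series at higher Grm2 and sums of 2191 to 4026.

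CA1 and DG did not divide in this way. Grm2 was lower in CA1 than in DG by -0.56 ± 0.25 on the Illumina (limma adjusted p = 0.045), in 27 of 34 rats, but by only -0.36 on the Ion Proton (limma adjusted p = 0.36), so the difference did not pass on both platforms.

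Grm3 encodes mGlu3, the other group II receptor, which is expressed by astrocytes as well as neurons. Its signal was 994 ± 192 in CA1, 1067 ± 292 in pieces labelled CA3 and 772 ± 174 in DG. For rats below 9000, CA1 ranged from 647 to 1159 (median 871), CA3 from 723 to 1627 (median 1010) and DG from 472 to 831 (median 659), and in the higher series the medians were 1147, 1055 and 887. DG was the lowest of the medians in both series, although the ranges overlapped.

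Grm3 was higher in CA1 than in DG by 0.37 ± 0.08 over all rats (1.29-fold, limma adjusted p = 2.1e-05; Ion Proton 0.38), and this passed within each series, at 0.44 and 0.29, but not in the higher series without libraries nearer to another subfield (0.28, Ion Proton limma adjusted p = 0.052). In pieces labelled CA3 it exceeded DG by 0.46 ± 0.08 (1.37-fold, limma adjusted p = 2.2e-07; Ion Proton 0.46; 0.21 in the WT table). That difference was 0.66 in the lower series, present in 18 of 18 rats, and 0.24 in the higher (limma adjusted p = 0.073), present in 12 of 16. CA1 and CA3 were neighbours in level and differed by -0.09, with a 95% interval of -0.24 to 0.06, at -0.21 in the lower and 0.05 in the higher series, neither passing on both platforms. Of the 8 astrocyte markers, Aldoc was higher in CA1 than in DG, and Aldoc and Aldh1l1 were higher in CA3 than in DG, with no other astrocyte marker called in these comparisons. Within the series 0 of 8 were called in either comparison in the lower, and in the higher 3 were higher in CA1 and 4 in CA3 than in DG. The summed astrocyte list was 46420 to 78163 in CA1, 46564 to 69619 in CA3 and 41023 to 62365 in DG, with overlap. Over all rats the 6 oligodendrocyte markers were higher in CA1 and in CA3 than in DG. In the lower series all 6 were higher in CA3 than in DG, with a median sum of 153803 against 52516, and in the higher series 0 were called, with 108907 against 114454. The part of glial content in the Grm3 differences was not tested.

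Grm7 encodes mGlu7, a low-affinity group III receptor of the presynaptic active zone, and DG held its highest level. Signal was 413 ± 63.8 in CA1, 476 ± 73.0 in pieces labelled CA3 and 574 ± 80.5 in DG. DG exceeded CA1 in 34 of 34 rats on the Illumina and in 32 of 34 on the Ion Proton. On the Illumina, CA1 of the lower series ranged from 379 to 512 and DG from 531 to 686, with no overlap. In the higher series they spanned 293 to 446 and 390 to 617 and overlapped. On the Ion Proton the lower series overlapped as well, at 264 to 498 in CA1 and 363 to 632 in DG.

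The difference of Grm7 between CA1 and DG was -0.48 ± 0.05 (0.718-fold, limma adjusted p = 1.4e-12; Ion Proton -0.39; -0.32 in the WT table), at -0.46 in the lower and -0.50 in the higher series. CA3 was below DG by -0.27 ± 0.05 (limma adjusted p = 1.2e-05; Ion Proton -0.25). Within the series this was -0.28 and -0.26 on the Illumina, and on the Ion Proton -0.12 in the lower (limma adjusted p = 0.32) and -0.40 in the higher. CA1 and CA3 differed by -0.21 on the Illumina (limma adjusted p = 0.0014) and by -0.14 on the Ion Proton (limma adjusted p = 0.22), so that step of the order did not pass. It was -0.18 in the lower and -0.24 in the higher series on the Illumina, neither passing on the Ion Proton.

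Grm8 encodes mGlu8, a group III receptor with high affinity for glutamate. Signal was 63.8 ± 35.9 in CA1, 40.8 ± 43.4 in pieces labelled CA3 and 26.9 ± 19.4 in DG. The ranges in the lower series were 11.2 to 136 in CA1 (median 81.2), 2.13 to 31.6 in CA3 (median 11.6) and 10.7 to 66.5 in DG (median 24.6). In the higher series they were 4.70 to 135 (median 40.9), 13.9 to 195 (median 66.8) and 7.44 to 101 (median 16.1). CA1 was the highest subfield by median in the lower series and CA3 in the higher, with overlap in both.

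Grm8 was higher in CA1 than in DG by 1.16 ± 0.28 (2.24-fold, limma adjusted p = 0.00028; Ion Proton 1.50), and by 1.37 and 0.93 in the lower and higher series. The fitted differences from CA3 had opposite signs in the series, with no contrast called in opposite directions, and a difference between the series was not tested. CA1 exceeded CA3 by 2.57 ± 0.27 in the lower series (limma adjusted p = 3.5e-12, 17 of 18 rats) and differed by -0.68 ± 0.35 in the higher (limma adjusted p = 0.19), where CA1 was the higher in 4 of 16 rats. CA3 against DG was -1.20 ± 0.27 in the lower series, where it passed on the Illumina (limma adjusted p = 0.00011) but not on the Ion Proton (-0.98, limma adjusted p = 0.069), and 1.62 ± 0.35 in the higher (limma adjusted p = 0.00026; Ion Proton 1.77). The pooled values were 1.04 ± 0.28 for CA1 against CA3 (limma adjusted p = 0.0020) and 0.13 ± 0.28 for CA3 against DG, and the first did not pass in edgeR on recovered reads, where the value was 0.68 and the Ion Proton adjusted p was 0.065, nor in DESeq2 (0.65).

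Grm4 encodes mGlu4, a group III receptor of presynaptic terminals that is most abundant in the cerebellum. Signal was 155 ± 65.0 in CA1, 136 ± 87.1 in pieces labelled CA3 and 106 ± 54.8 in DG. CA3 spanned 55.1 to 142 in the lower series (median 85.3) and 50.9 to 373 in the higher (median 200), the widest spread of this gene, and the ranges of all subfields overlapped. CA1 exceeded DG by 0.53 ± 0.16 (1.45-fold, limma adjusted p = 0.0032; Ion Proton 0.74). In the separate series the Illumina values were 0.50 and 0.57, neither of which passed on both platforms. CA1 against CA3 was 0.29 over all rats, 0.58 in the lower and -0.03 in the higher series, and CA3 against DG was 0.24, -0.08 and 0.60, and none of these was called.

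Grm5 encodes mGlu5, a group I receptor of pyramidal cell dendrites. Signal was 1351 ± 299 in CA1, 1218 ± 251 in pieces labelled CA3 and 1380 ± 184 in DG, and the ranges overlapped in both series. CA1 against CA3 was 0.15 ± 0.07 (limma adjusted p = 0.091; Ion Proton 0.20, limma adjusted p = 0.052), CA1 against DG was -0.05 with a 95% interval of -0.19 to 0.08, and CA3 against DG was -0.20 ± 0.07 (limma adjusted p = 0.011; Ion Proton -0.15, limma adjusted p = 0.11). No step of its order passed on both platforms, although CA1 exceeded CA3 in 28 of 34 rats. Within the lower and higher series CA1 against CA3 was 0.22 and 0.06, and CA3 against DG was -0.16 and -0.24, none of them called. Without the libraries of 1 impaired rat of the higher series the CA1 against CA3 difference passed, at 0.17 (limma adjusted p = 0.042).

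**Figure D3:**
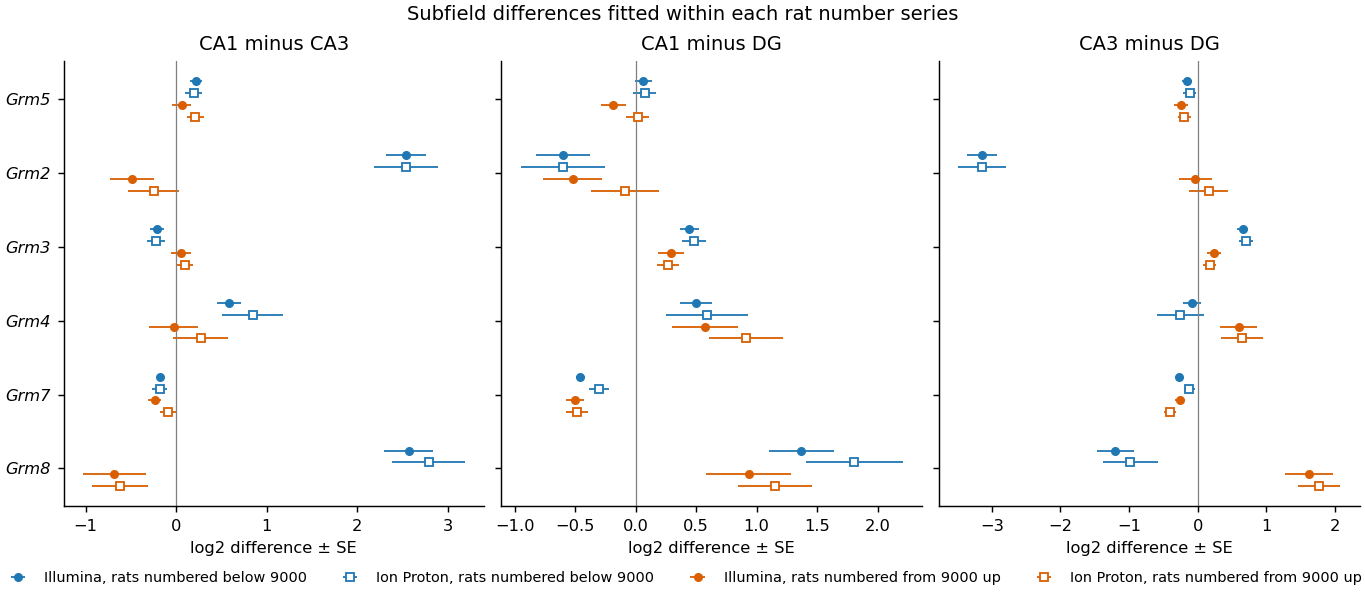
Subfield differences of the receptors on the log2 scale (x axis, first minus second, ± SE), fitted separately in rats numbered below 9000 and from 9000 up, with filled symbols for the Illumina and open symbols for the Ion Proton. Grm2 and Grm8 in the comparisons with CA3 lie apart between the series, at 2.54 and -0.48 for Grm2 in CA1 minus CA3, while Grm7 in CA1 minus DG lies at -0.46 and -0.50.

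In counts, a member was called between subfields when its adjusted p was under 0.05 on both platforms in the same direction. Of the 6 members, 2 were called in CA1 against CA3 (Grm2 and Grm8), where 14.1% of all 14179 tested genes were. In CA1 against DG 4 of 6 were called (Grm3, Grm4, Grm7 and Grm8, 26.4% of all genes), and in CA3 against DG 3 of 6 (Grm2, Grm3 and Grm7, 27.9%). In the lower series 2, 3 and 2 members were called, against 21.4%, 15.4% and 22.9% of all genes, and in the higher series 0, 3 and 2, against 3.88%, 20.5% and 21.6%. Of the genes called in all rats, the series had opposite signs for 21.3% in CA1 against CA3, 0.456% in CA1 against DG and 12.5% in CA3 against DG.

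Over all rats, with the libraries nearer to another subfield included, all 4 tested CA1 pyramidal markers were higher in CA1 than in either other subfield, and all 4 tested dentate granule markers were lower in CA1 and in CA3 than in DG. The granule markers were also higher in CA1 than in CA3. Of 5 tested CA3 markers, 3 were lower in CA1 than in CA3 and 1 was higher in CA3 than in DG. Of the other lists, 1 of 2 CA2 markers, 0 of 7 microglial, 0 of 6 oligodendrocyte, 0 of 4 precursor, 0 of 7 interneuron, 0 of 5 endothelial and 0 of 5 choroid plexus markers were called between CA1 and CA3, with 1 of 3 thalamic and 3 of 5 neocortical. These counts changed within the series. Between CA1 and CA3, all 4 CA1 markers, all 4 granule markers and 4 of 5 CA3 markers were called in the lower series in the pooled direction, and in the higher series 1 CA1 marker (higher in CA1), 0 granule markers and 1 CA3 marker (higher in CA1). All 6 oligodendrocyte markers were lower in CA1 than in CA3 in the lower series, and 3 were higher in the higher series. Between CA3 and DG, 4 of 5 CA3 markers were higher in CA3 in the lower series and 3 were lower in the higher. Over all rats, CA1 had against DG 3 of 7 microglial, 3 of 4 precursor, 3 of 7 interneuron, 2 of 5 endothelial and 2 of 5 choroid plexus markers called, all higher, and CA3 had 6 of 7, 4 of 4, 3 of 7, 0 of 5 and 1 of 5.

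Grm6, a further receptor of the family that is best known from retinal bipolar cells, was called lower in CA1 than in CA3 and higher in CA3 than in DG. Within series Grm6 passed in the lower series, at -0.34 and 0.45, and not in the higher, at -0.30 and 0.36.

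Genes of Gq coupling and its scaffolds were called in both directions. The counts of this list and the following ones stand beside shares of all genes called of 14.1% (CA1 and CA3), 26.4% (CA1 and DG) and 27.9% (CA3 and DG), and beside the series shares given above. Of 16 tested, 4 were higher and 2 lower in CA1 than in CA3 (median log2 difference 0.13, against 0.01 over all genes), 6 higher and 2 lower in CA1 than in DG (0.15 against 0.00), and 6 higher and 2 lower in CA3 than in DG (0.18 against 0.01). For CA3 against DG the lower series had 5 higher and 0 lower (median 0.13) and the higher series 4 and 4 (0.02). For CA1 against CA3 they had 4 and 3, and 4 and 0. Homer3, which links group I receptors to IP3 receptors, was lower in CA1 than in DG by -1.27 ± 0.16, and Homer2, a related scaffold, was higher by 0.95 ± 0.10 (limma adjusted p = 1.0e-10 and 1.4e-13). Prkca, a protein kinase C activated downstream of Gq, was lower in CA1 than in CA3 by -0.72 ± 0.11, which was -1.42 in the lower series and 0.06 in the higher.

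Genes of Gi/o coupling and its effectors divided as well. Of 14 tested, 5 were higher and 2 lower in CA1 than in CA3 (median 0.05, against 0.01 over all genes), 3 higher and 2 lower in CA1 than in DG (-0.01 against 0.00), and 4 higher and 6 lower in CA3 than in DG (-0.12 against 0.01). For CA1 against CA3 the lower series had 5 higher and 2 lower and the higher series 0 and 0, and for CA3 against DG they had 3 and 5, and 2 and 4. Adcy1, a calcium-stimulated adenylyl cyclase, was higher in CA1 than in CA3 by 1.25 ± 0.19 and lower in CA3 than in DG by -1.73 ± 0.19. In rats below 9000 these differences were 1.83 and -2.52, and in the others 0.61 and -0.84.

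Of the regulators and binding partners 11 of 14 were tested. In CA1 against CA3 3 were higher and 1 lower (median 0.06 against 0.01 over all genes), in CA1 against DG 4 and 2 (-0.06 against 0.00), and in CA3 against DG 2 and 2 (-0.06 against 0.01). Within the series the counts were 3 and 1 (lower) and 1 and 0 (higher) for CA1 against CA3, and 2 and 2 and 2 and 1 for CA3 against DG. Rgs4, which speeds the inactivation of Gq and Gi/o, was higher in CA1 than in DG by 1.20 ± 0.22, at 1.23 and 1.18 in the separate series. Grasp (tamalin), a scaffold that binds group I receptors, was higher in CA1 than in CA3 by 0.76 ± 0.08 and lower in CA3 than in DG by -0.69 ± 0.08. For Grasp the lower series gave 1.19 and -1.05, and the higher 0.27 and -0.27, of which neither passed on both platforms.

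The effect of age was fitted in each subfield between all 24 aged and the 10 young rats, with a call at p under 0.01 on the Illumina and one-sided p under 0.05 in the same direction on the Ion Proton. In each subfield 0 of 6 receptors were called, by limma, edgeR and DESeq2, where limma called 0.832% of all genes in CA1, 0.393% in CA3 and 1.07% in DG. At an unadjusted p under 0.05 there were 0, 1 and 0 receptors by each of these tools, where limma had 6.15%, 3.31% and 5.2% of all genes. In CA1 the fitted age differences lay between -0.17 (Grm8) and 0.16 (Grm4), and in DG between -0.07 (Grm4) and 0.32 (Grm8). The intervals did not exclude moderate changes of the low members, since that of Grm8 in CA1 ran from -0.97 to 0.64, while that of Grm7 ran from -0.20 to 0.14.

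The receptor with the smallest p for age was Grm4 in pieces labelled CA3. Its signal was 50.9 to 217 in young rats (median 78.5) and 55.1 to 373 in aged rats (median 114), with wide overlap. The difference was 0.67 ± 0.27 on the Illumina (limma p = 0.019, adjusted p = 0.999) and 0.39 on the Ion Proton (limma p = 0.43). In the lower series it was 0.30 (limma p = 0.097), and in the higher 1.13 ± 0.37 (limma p = 0.0065; Ion Proton 0.89).

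Within the higher series alone 2 of 6 receptors met the rule in pieces labelled CA3, Grm4 and Grm2, against 0.84% of all genes. Grm2 there was 377 to 612 in 5 young rats (median 533) and 482 to 1422 in 11 aged rats (median 718), with overlap. The fitted difference was 0.76 ± 0.21 (limma p = 0.0022; Ion Proton 0.63). In the lower series the difference of Grm2 was 0.07 (limma p = 0.89), and over all rats 0.30 ± 0.56 (limma p = 0.59). Of the 5 CA3 libraries that stood nearer to another subfield, all were from aged rats of the higher series, and without them the Grm2 and Grm4 differences there were 0.57 (limma p = 0.0099) and 1.18 (limma p = 0.0076). The CA3 marker list of all these pieces lay below that of the lower series, as given above. In CA3 pieces of the higher series the summed dentate granule list was 346 to 1327 in young rats (median 803). In unimpaired rats it was 460 to 2663 (median 663) and in impaired rats 590 to 4857 (median 2006.5). The part of tissue content in these age differences was not tested.

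Genes around the receptors did not pass with age either, with 0 called in each of the 4 pathway lists in each subfield. Of all genes 0.832% (CA1), 0.393% (CA3) and 1.07% (DG) were called, and lists of this size would hold few calls at those shares. Among the 8 astrocyte markers Gfap was called higher in aged rats in every subfield, and no other astrocyte marker was called. Of the microglial markers 3 of 7 were called higher in CA1, 1 of 7 in CA3 and 4 of 7 in DG, beside the same shares. The other marker lists had 0 genes called for age.

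**Figure D4:**
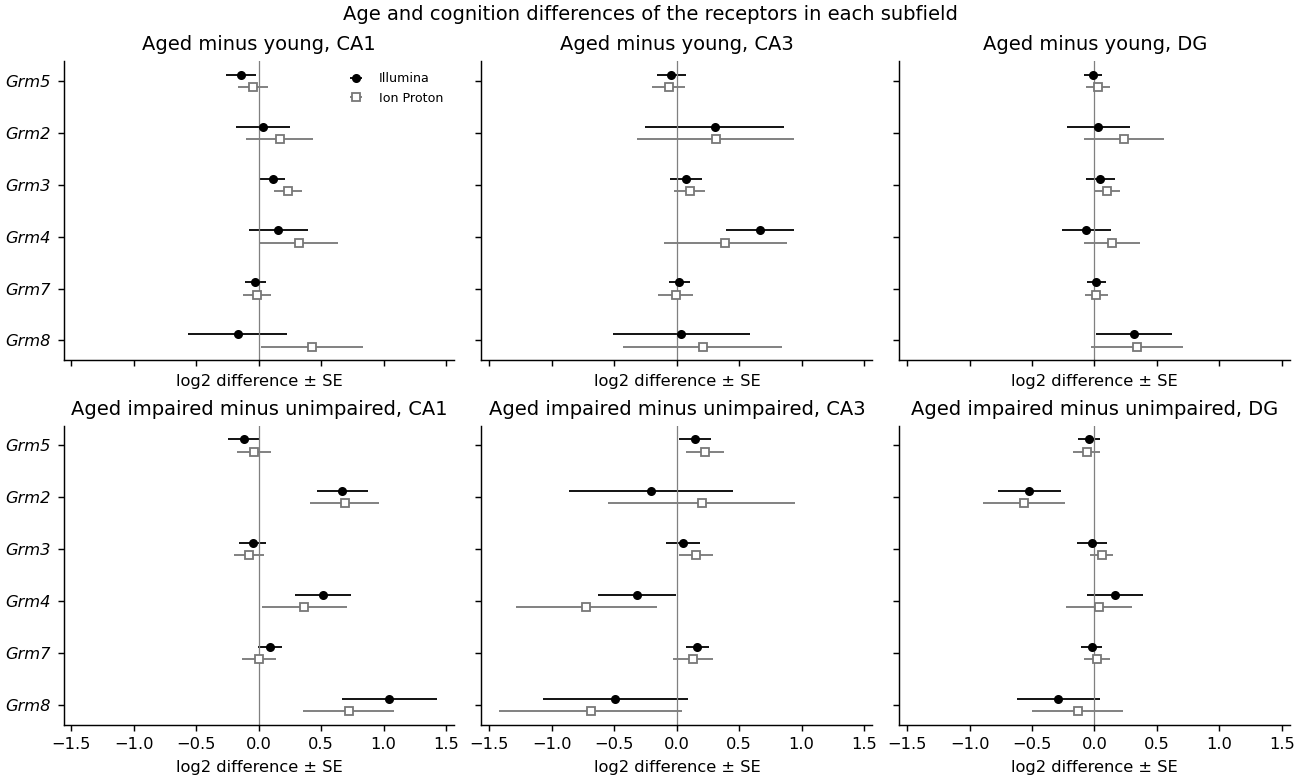
Age differences (aged minus young) and cognition differences (aged impaired minus aged unimpaired) of the receptors in each subfield on the log2 scale (x axis, ± SE), with filled circles for the Illumina and open squares for the Ion Proton. The age differences in CA1 lie between -0.17 and 0.16 on the Illumina, and Grm2, Grm4 and Grm8 in CA1 have positive cognition differences of 0.67, 0.51 and 1.05.

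Cognition was examined among aged rats, by the same rule, as the difference of impaired from unimpaired. In CA1 1 of 6 receptors was called, Grm2, where 0.62% of all genes were, and 0.373% of all genes were called higher in impaired rats. The study itself named Grm2 from these libraries, so this count is not independent evidence. Signal in CA1 was 204 to 1052 in unimpaired rats (median 462), 483 to 1044 in impaired rats (median 781) and 227 to 833 in young rats (median 646). Impaired rats were higher in median, and the groups overlapped.

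The difference of Grm2 in CA1 was 0.67 ± 0.20 on the Illumina (1.59-fold, limma p = 0.0029, adjusted p = 0.56) and 0.69 ± 0.27 on the Ion Proton (limma p = 0.019), where unimpaired rats ranged from 159 to 1643 and impaired rats from 245 to 1268. No gene passed an adjusted p of 0.05 in this comparison in limma, against 811 (5.71%) at an unadjusted p under 0.05, 0 adjusted calls in edgeR and 6 in DESeq2. Impaired rats differed from young by 0.37 ± 0.22 (limma p = 0.097) and unimpaired from young by -0.30 ± 0.22 (limma p = 0.18), comparisons that share the young rats, and neither was called.

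The cognition difference of Grm2 was uneven between the number series. Unimpaired rats of the lower series ranged from 413 to 1052 (median 736, n = 6) and impaired from 699 to 1042 (median 781, n = 7), and overlapped. The difference of 0.26 ± 0.17 did not pass (limma p = 0.15). In the higher series they ranged from 204 to 463 (median 367, n = 6) and from 483 to 1044 (median 780, n = 5), without overlap on the Illumina. On the Ion Proton these groups overlapped, since an unimpaired rat reached 465 and an impaired rat fell to 413. The share of all genes that separate these groups was not counted. The difference was 1.05 ± 0.25 (limma p = 0.0011; Ion Proton 1.22, p = 0.00088). This difference between the series was not tested. Over both series, without the 7 deeply sequenced rats, whose Illumina libraries held over 25 M reads, the Grm2 difference was 0.56 (limma p = 0.011). It was not called.

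Subfield marker lists in CA1 overlapped between the aged groups. The summed dentate granule list was 497 to 2955 in unimpaired (median 1571) and 619 to 3379 in impaired rats (median 2200), the CA1 list 2308 to 22473 (median 13577) and 7218 to 12499 (median 11441), and the CA3 list had medians of 3188 and 2704. In none of these lists was a gene called for cognition in CA1. In the higher series, where Grm2 differed, the granule list had a median of 1240 in unimpaired and 2411 in impaired rats, against 2836 and 2127 in the lower. The corresponding CA1 list medians were 13550 and 9814, and 14528 and 11801. Those of the CA3 list were 3664 and 2689, and 2902 and 2719. Their part in the Grm2 difference was not tested. Depth was similar, at medians of 11.5 and 11.1 M reads. Tbr1, of the neocortex list, was called higher in impaired rats by 0.56 ± 0.16, and the other marker lists had 0 genes called.

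**Figure D5:**
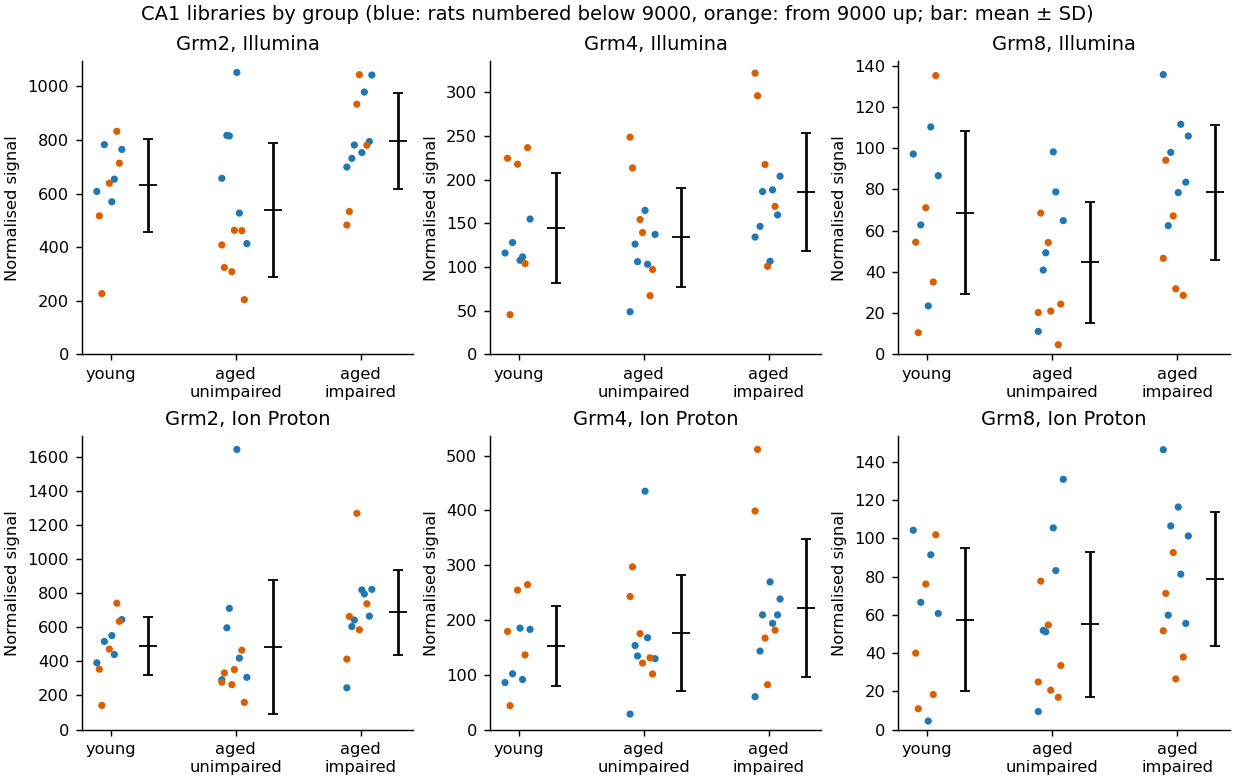
Normalised signal of receptors in CA1 (y axis, from 0) in young, aged unimpaired and aged impaired rats, with each point 1 library, colours for the rat number series and bars for the mean ± SD. Grm2 on the Illumina is 538 ± 250 in unimpaired and 796 ± 180 in impaired rats, and the unimpaired rats of the higher series sit at 204 to 463.

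The group III receptors Grm8 and Grm4 had positive cognition differences in CA1 that did not meet the rule. Grm8 was 4.70 to 98.2 in unimpaired (median 45.1) and 28.6 to 136 in impaired rats (median 81.0), with overlap, a difference of 1.05 ± 0.38 (limma p = 0.011; Ion Proton 0.72, p = 0.057). It was 0.96 in the lower and 0.97 in the higher series, and it met the rule with the number series as a covariate (limma p = 0.0085) and in 8 fits that left out 1 rat. Grm4 was 48.9 to 249 in unimpaired and 101 to 322 in impaired rats, a difference of 0.51 ± 0.22 (limma p = 0.029; Ion Proton 0.36, p = 0.29). Grm5, Grm3 and Grm7 differed by -0.12, -0.05 and 0.09, each smaller than its SE.

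Elsewhere no receptor was called for cognition, with 0 of 6 in CA3 (0.0211% of all genes) and 0 of 6 in DG (0.121%), by limma, edgeR and DESeq2, and 0 at an unadjusted p under 0.05 in both, where 1.4% and 3.85% of all genes were. In DG Grm2 was 755 to 1435 in unimpaired (median 1099) and 136 to 1307 in impaired rats (median 978). The difference was -0.52 ± 0.25 (limma p = 0.050; Ion Proton -0.56, p = 0.098), and the lowest impaired value was the rat whose CA3 and DG pieces each stood nearer to the other subfield. Without that rat the difference was -0.30. Within the series the Grm2 difference was -0.19 in the lower and -1.03 in the higher (limma p = 0.025), where that rat was included. Without libraries nearer to another subfield, the lowest difference of any receptor in DG of the higher series was -0.51. In pieces labelled CA3 the intervals were wide, from -1.55 to 1.15 for Grm2, whose difference was -0.14 in the lower and 0.22 in the higher series.

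With young rats as the reference for each aged group, 0 of 6 receptors were called in any of the 6 comparisons, where unimpaired rats had 0.655% (CA1), 0.281% (CA3) and 0.649% (DG) of all genes called, and impaired rats 0.81%, 0.344% and 0.97%. Differences between subfields in an age or cognition effect were tested directly. By limma 0 of 6 receptors, and 0% of all genes, passed an adjusted p of 0.05. In edgeR 0 receptors passed, with 0 to 14 genes per comparison. At an unadjusted p under 0.05, 2 receptors had a larger cognition effect in CA1 than in CA3 by limma, where 5.22% of all genes (740) were at this level. They were Grm8, by 1.54 ± 0.67 (limma p = 0.023), and Grm4, by 0.83 ± 0.37 (limma p = 0.026). Against DG the cognition effect in CA1 was larger for Grm2, by 1.19 ± 0.59 (limma p = 0.046), and for Grm8, by 1.33 ± 0.67 (limma p = 0.048), where 3.74% of all genes were. By edgeR, and by limma without libraries nearer to another subfield, 0 receptors were at this level in that contrast. The age effect of Grm4 was larger in CA3 than in DG by 0.73 ± 0.34 (limma p = 0.033), where 1.03% were. In the other contrasts 0 receptors reached this level, against 1.89% (age, CA1 and CA3), 0.353% (age, CA1 and DG) and 2.36% (cognition, CA3 and DG) of all genes.

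Of the pathway lists, 1 gene was called for cognition, in CA1, where 0.62% of all genes were. Prkca was lower in CA1 of impaired rats by -0.46 ± 0.14 (limma p = 0.0039, adjusted p = 0.56; Ion Proton -0.38), 1 of 16 genes in the Gq list, whose median was -0.09 against 0.00 over all genes. The other lists had 0 genes called in CA1, and all lists had 0 in CA3 (0.0211% of all genes) and DG (0.121%). The study itself named Prkca as lower in this comparison from these libraries, so the call is not independent evidence. It also named Itpr1, Dgkz and Homer3 of the Gq list, which were not called here.

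The genes most like each receptor over all libraries were found by Pearson r of log2 signal on both platforms among 13907 genes. These values are descriptions, since libraries share rats, subfields and the number series. Grm2 ran with Kcnc4 (r = 0.925 and 0.872 on the Illumina and Ion Proton), a voltage-gated potassium channel, and Rps6ka2 (0.921 and 0.864), a ribosomal S6 kinase. Grm8 ran with Garnl3 (0.883 and 0.844) and Rgs4 (0.842 and 0.783), and Grm7 with Dmxl2 (0.842 and 0.834), a synaptic vesicle protein, and Nalcn (0.816 and 0.813), a sodium leak channel. Grm5 ran with Cacna1e (0.862 and 0.762), a voltage-gated calcium channel, and Kcnd2 (0.755 and 0.756), an A-type potassium channel. Grm3 ran with Npc1 (0.861 and 0.780), a cholesterol transporter of lysosomes, and Ppfibp2 (0.794 and 0.780), and Grm4 with Limk1 (0.796 and 0.783), a kinase of actin turnover, and Gpr153 (0.751 and 0.791).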

How the data were processed

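RNA of 34 rats and 3 subfields was measured in 3 tables. Per the labels and the study's methods, the authors trimmed Illumina reads with CutAdapt (version 1.8.3), aligned them to rn5 with STAR (version 2.5) and counted genes with featureCounts (version 1.4.4). Ion Proton reads had been aligned with TopHat2 and Bowtie2. The library type of the WT table is not given in the sources used here. The deposited values were a normalised signal, gene counts divided by DESeq2 size factors in each table separately. They returned whole reads for 100% of positive values (tolerance 0.01 of a read). TruSeq kits differed between labels and methods, so counting by strand is unknown and overlapping genes may share reads.

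Genes with a mean of at least 10 were fitted in limma (3.58.1, with trend, in R 4.3.3) on log2(signal + 1), with Benjamini-Hochberg adjustment over all tested genes of a table. The thresholds follow the study's methods, where DESeq2 was the test. Recovered reads were also tested with edgeR (4.0.16) and DESeq2 (1.42.0), and edgeR called 2156 genes between CA1 and CA3, 4094 between CA1 and DG and 4341 between CA3 and DG, where limma called 1996, 3739 and 3957. Subfields of the same rat are paired by design, and with the rat as block the consensus correlation was 0.149 (Illumina) and 0.0891 (Ion Proton). Scripts were tested on simulated data.

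The members, pathway lists and marker lists were chosen with earlier results of these data known. All 6 members were named, with the 3 called pathway genes of largest mean change per subfield comparison, called pathway genes for age and cognition, and the 2 genes most alike to each member. Marker lists covered pyramidal cells of each CA field, granule cells, glia, interneurons, endothelium, choroid plexus, thalamus and habenula, and neocortex. Grm6, Grik4 and called marker genes were named after their values were seen. Alternatives were another pseudocount, no filter, count tests, the WT table, the rat block, number series as subsets or covariate, and leaving out libraries nearer another subfield, deep rats or each rat. The higher series without libraries nearer another subfield was added after seeing the data. One result that the naming rule covers is not reported here.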

Additional observations from a re-analysis of the deposited data

Results flagged for a closer look

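In groups of young rats (n = 10), 6 of 36 sets of values had 1 library whose gap to the nearest other, divided by the range of the group, exceeded Dixon's 95% critical value. Chance flags about 1 in 20 such sets when values are normal and sets are independent. Here each group was measured on both platforms from the same RNA and mixed both number series. The count of flags can therefore not be compared with that rate. Grm2 in CA1 had a lowest Illumina value of 227, next to 517, in a rat of the higher number series. Grm3 in pieces labelled CA3 had a highest value of 1627 next to 1179 on the Illumina and 1976 next to 1394 on the Ion Proton, both from the same rat of the lower series. Grm4 in pieces labelled CA3 had a highest value of 217 next to 104 on the Illumina and 289 next to 164 on the Ion Proton. Grm8 in pieces labelled CA3 had a highest Ion Proton value of 84.8 next to 45.0, in the same rat of the higher series that was highest for Grm4. Aged groups, with more than 10 rats each, were not examined in this way.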

How the results depend on the processing

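Direction and call held in most alternatives, and the exceptions are listed; the cause was not tested. Of members called between CA1 and CA3, 1 remained in count with edgeR and 1 with DESeq2 (Grm8 lost on the Ion Proton), and 0 in the higher series, with or without libraries nearer to another subfield. Without those libraries the higher series had 2 members called between CA1 and DG, in place of 3, with Grm3 lost on the Ion Proton. For age in CA3 the higher series had 2 called, with or without them. For cognition in CA1, 0 were called in the lower series, 0 without the deeply sequenced rats and 2 with the number series as covariate. Leave-one-out counts were 1 to 2 for cognition in CA1 and 0 to 1 for age in CA3. At an unadjusted p under 0.05, the 2 receptors whose cognition effect differed between CA1 and DG became 0 in edgeR and 0 without libraries nearer to another subfield. On recovered reads the CA1 against CA3 values of Grm2 fell from 1.12 to 0.63 (edgeR) and 0.60 (DESeq2), and those of Grm8 from 1.04 to 0.68 and 0.65. With DESeq2 Grm8 was also called between CA3 and DG, at 0.59. The rat block (paired by design) called the same counts of members, 2, 4 and 3, and changed no call; it called 2242, 4086 and 4294 genes. Over all genes, age calls in CA3 were 56 in limma (48 higher in aged), 157 in edgeR (60 higher) and 100 in DESeq2 (77 higher), and cognition calls were 3, 4 and 7 in CA3 and 17, 28 and 33 in DG. CA3 against DG split 1966 higher and 1991 lower in limma and 2610 and 1878 in DESeq2. 

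With DESeq2 the sign changed in age, DG (Grm4 0.0055). With the WT table in place of the Illumina the sign changed in CA1 against CA3 (Grm3 0.15), CA1 against DG (Grm5 0.093), age, CA1 (Grm7 0.016, Grm8 0.17), age, CA3 (Grm8 -0.0057), age, DG (Grm2 -0.053, Grm5 0.0018), cognition, CA3 (Grm3 -0.087, Grm5 -0.040), cognition, DG (Grm8 0.21). With the number series as a covariate the sign changed in cognition, CA3 (Grm2 0.022), cognition, DG (Grm3 0.021). In rats of the lower series alone the sign changed in CA1 against DG (Grm5 0.063), CA3 against DG (Grm4 -0.079, Grm8 -1.20), age, CA1 (Grm8 0.028), age, CA3 (Grm3 -0.22, Grm5 0.070), age, DG (Grm2 -0.061, Grm5 0.058), cognition, CA3 (Grm5 -0.064). In rats of the higher series alone the sign changed in CA1 against CA3 (Grm2 -0.48, Grm3 0.055, Grm4 -0.027, Grm8 -0.68), age, CA1 (Grm2 -0.15), age, DG (Grm4 0.16, Grm7 -0.022), cognition, CA3 (Grm2 0.22), cognition, DG (Grm3 0.11, Grm5 0.025). In the higher series without libraries nearer to another subfield the sign changed in CA1 against CA3 (Grm2 -0.25, Grm3 0.10, Grm8 -0.84), age, CA1 (Grm2 -0.12), age, CA3 (Grm7 -0.028), age, DG (Grm4 0.049), cognition, CA1 (Grm3 0.020), cognition, CA3 (Grm2 0.086, Grm4 0.46), cognition, DG (Grm3 0.23, Grm5 0.14, Grm8 0.023). Without libraries nearer to another subfield over all rats the sign changed in age, CA3 (Grm2 -0.14, Grm8 -0.17), age, DG (Grm5 0.024), cognition, DG (Grm3 0.018, Grm8 0.10). Without the deeply sequenced rats the sign changed in age, CA1 (Grm2 -0.12, Grm7 0.023), age, CA3 (Grm8 -0.037), age, DG (Grm3 -0.026, Grm5 0.0017), cognition, DG (Grm5 0.0041, Grm7 0.012). Leaving out 1 rat at a time changed the sign at least once for Grm2 age, CA1 (-0.12 to 0.10), Grm4 age, CA1 (-0.0097 to 0.25), Grm5 age, CA3 (-0.077 to 0.0080), Grm7 age, CA3 (-0.030 to 0.050), Grm8 age, CA3 (-0.30 to 0.27), Grm2 age, DG (-0.16 to 0.15), Grm3 age, DG (-0.014 to 0.11), Grm4 age, DG (-0.15 to 0.027), Grm5 age, DG (-0.038 to 0.012), Grm7 age, DG (-0.044 to 0.042), Grm3 cognition, CA1 (-0.093 to 0.0056), Grm2 cognition, CA3 (-0.67 to 0.013), Grm3 cognition, CA3 (-0.045 to 0.10), Grm3 cognition, DG (-0.072 to 0.045), Grm7 cognition, DG (-0.045 to 0.010). Depth limits Grm8, with libraries at or under 3 reads.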
